A study of Mus musculus with 128 samples.

Results

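Pericentral hepatocyte genes that depend on Wnt signalling were followed in mouse liver cells across embryonic stages, Pard3 mutant lines and adult liver after partial hepatectomy. The set held 10 named genes, Glul, Cyp2e1, Cyp1a2, Oat, Lgr5, Axin2, Lect2, Rgn, Slc1a2 and Rhbg, taken by symbol from the 40824 genes of the single-cell read count table. Libraries of Smart-seq3xpress, a plate-based full-length method for single cells, were summed over their cells, and levels are given as CPM, read counts scaled to library size with TMM factors. Floxed Pard3 (Pard3-fl/fl) carrying Foxa3-Cre, called Foxa3Cre Pard3HMKO, was set against Foxa3-Cre alone (Foxa3Cre Pard3WT) at E11.5, E13.5, E15.5, E17.5, E19.5, P0 and P14. Alfp-Cre;Pard3-fl/fl was set against Alfp-Cre at E17.5. Both Cre lines were on C57BL/6, with 2 libraries per group, and the controls carried the same Cre transgene. The adults, all C57BL/6 Pard3-fl/fl at P60, had received an AAV-Tbg-Cre injection for 7 days (Pard3HMKO) or were labelled control (Pard3WT), and were taken on day 0, 2 or 7 after partial hepatectomy. These groups held 2 libraries each on days 0 and 2, and 6 Pard3HMKO and 4 Pard3WT libraries on day 7. No vector is named for the adult controls, so vector exposure and Pard3 deletion cannot be told apart in the adults. Wild-type embryos of C57BL/6XC3H (B6C3F1) gave 18 libraries at E11.5 to E17.5 and E19.5. The Cre drivers act in endoderm (Foxa3), in the hepatic lineage (Alfp) and, for the Tbg promoter, in hepatocytes. A further 12 Foxa3Cre libraries, 2 per group on C57BL/6, entered the fit of the Cre lines and are described at the end only. They were YapHMKO (Foxa3-Cre;Yap-fl/fl) and YapWT (Foxa3-Cre) at E15.5 and E17.5, and Pard3HMKO YapHMKO (Foxa3-Cre with both Pard3 and Yap floxed) and Pard3WT YapWT (Foxa3-Cre) at E17.5. Libraries were labelled hepatoblast up to E14.5 and hepatocyte from E15.5.

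In the liver lobule, Wnt ligands and R-spondin from the endothelium of the central vein act on the hepatocytes next to it. There, Frizzled and LRP receptors stabilise beta-catenin, which activates target genes with TCF/LEF factors. Glul, the glutamine synthetase that fixes ammonia into glutamine, is known as the marker of the innermost ring of pericentral hepatocytes, whereas the cytochromes Cyp2e1 and Cyp1a2 extend further into the lobule. Pard3 encodes PAR3, a scaffold of cell polarity at tight junctions.

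The 80 libraries held 7 to 133 cells and 4506130 to 86188713 reads each, with a median of 632379 reads per cell. The values were deposited as read counts, and whether reads were collapsed to molecules is not given. Intervals on counts cover counting error only, and nothing in the labels says whether the libraries of a group came from separate animals. Pard3 was counted over the whole gene and the deleted exons are not given, so these counts do not check the deletion. Pard3 was called lower in none of the comparisons, with 40.2 and 35.8 CPM in P0 Foxa3Cre Pard3HMKO against 43.5 and 46.0 CPM in Pard3WT libraries, and 42.0 and 34.6 CPM in adult day 0 Pard3HMKO against 33.8 and 36.6 CPM in Pard3WT libraries. The groups are therefore named by their labels. Xist, which is transcribed in female cells, was at 14.3 and 18.3 CPM in E17.5 Foxa3Cre Pard3HMKO libraries against 0 and 0.171 CPM in Pard3WT libraries. At P0, Xist was at 30.1 and 31.3 CPM against 0.437 and 0.644 CPM, and at P14 at 236 and 254 CPM against 1.79 and 1.54 CPM, in the same order. Sex makeup and genotype cannot be told apart in these 3 Foxa3Cre comparisons. The E11.5 Foxa3Cre libraries stood apart, with Alb at 826 to 1086 CPM against 19379 to 19475 CPM in E11.5 B6C3F1 libraries, and 1 adult library (Pard3WT day 2, replicate 1) held 7 cells. In bulk sums, fewer cells of a type and less RNA per cell cannot be told apart. All 8 hepatocyte markers had reads in every group. In all, 48.9% of cells had reads of at least 50% of the markers of another cell type and 11.3% had them at 10 CPM or more. Leaving out the larger set emptied 5 libraries, which were E13.5 Foxa3Cre Pard3WT replicate 1, P0 and P14 Pard3HMKO replicate 2, and day 7 Pard3HMKO replicates 3 and 4. It left 2 cells in P0 and in P14 Pard3HMKO replicate 1, and 1 cell in P14 Pard3WT replicate 1 and in day 2 Pard3WT replicate 1. It ended 33 of 60 calls on the 10 genes and turned 4 to the other direction, while leaving out the smaller set ended 4 of 60.

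Open chromatin was measured by ATAC-seq in E17.5 Foxa3Cre livers, with 3 Pard3HMKO and 3 Pard3WT libraries of 38132 to 44506 peaks that the authors had called per library with MACS. A region was counted as lost where all 3 Pard3WT and no Pard3HMKO library had a peak, and as gained in the opposite case. The promoter letters are shown because the peak over 2 of them, Cyp2e1 and Lect2, followed the genotype. Each is the 250 bases before the annotated start in RefSeq on GRCm38.p6, read 5′ to 3′ on the gene's strand. Capitals mark CTTTGA or its reverse complement TCAAAG, the core letters of TCF/LEF motifs, and TATAAA. Cyp2e1 lies at chr7:140763569-140763818 on the plus strand, Lect2 at chr13:56548539-56548788 on the minus strand, Cyp1a2 at chr9:57683656-57683905 on the minus strand and Glul at chr1:153899679-153899928 on the plus strand.
Cyp2e1: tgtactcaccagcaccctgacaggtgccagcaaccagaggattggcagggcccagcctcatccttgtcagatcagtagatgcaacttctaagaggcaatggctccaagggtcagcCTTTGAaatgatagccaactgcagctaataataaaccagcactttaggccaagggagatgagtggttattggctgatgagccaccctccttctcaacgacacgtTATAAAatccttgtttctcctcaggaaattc
Lect2: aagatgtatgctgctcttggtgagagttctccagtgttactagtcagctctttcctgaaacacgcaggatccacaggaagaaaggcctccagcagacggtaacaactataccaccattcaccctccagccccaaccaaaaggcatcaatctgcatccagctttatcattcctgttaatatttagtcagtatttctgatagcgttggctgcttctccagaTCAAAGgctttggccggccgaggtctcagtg
Cyp1a2: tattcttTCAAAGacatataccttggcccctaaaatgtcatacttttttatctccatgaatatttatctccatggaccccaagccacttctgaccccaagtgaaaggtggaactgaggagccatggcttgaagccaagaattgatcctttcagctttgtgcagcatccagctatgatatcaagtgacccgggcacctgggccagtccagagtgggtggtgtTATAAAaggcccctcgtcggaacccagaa
Glul: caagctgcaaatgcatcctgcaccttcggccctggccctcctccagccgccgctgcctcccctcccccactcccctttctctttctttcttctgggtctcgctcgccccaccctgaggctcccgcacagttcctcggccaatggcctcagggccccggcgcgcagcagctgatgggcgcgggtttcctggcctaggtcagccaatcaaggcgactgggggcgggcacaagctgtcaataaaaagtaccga

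Peaks with a score of 50 or more over these promoters separated the genes. At the Cyp2e1 promoter, the region chr7:140763421-140763970 had no peak in 3 of 3 Pard3HMKO libraries and a peak in each Pard3WT library, with authors' scores of 125.7, 219 and 201. Another Cyp2e1 region, chr7:140756548-140756850, 6969 bases before the gene, likewise had no peak in Pard3HMKO and scores of 97.8, 81.0 and 134 in Pard3WT libraries. The Lect2 promoter region chr13:56548403-56548705 had no peak in Pard3HMKO libraries, and scores of 95.5, 80.1 and 77.0 in Pard3WT libraries. The Glul promoter was open in both genotypes, with scores of 470.2, 474 and 406 in Pard3HMKO and 290.2, 294 and 382 in Pard3WT libraries. No E17.5 Pard3 library of either genotype had a peak over the Cyp1a2 promoter or over the Slc1a2 promoter at chr2:102706188-102706437. That Slc1a2 promoter belongs to an annotated start inside the gene span, chr2:102658239-102790784. The 5′ end of the span was not read as a promoter. The Oat and Axin2 promoters had a peak in 3 of 3 libraries of both genotypes.

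Of the 10 genes, 3 had a lost region within 10 kb (Cyp2e1, Lect2 and Rgn) and 1 a gained region (Slc1a2). Over all 21896 genes with a span, 9.47% had a lost region, 9.76% a gained region and 17.4% either. Of these genes, 17105 had any region within 10 kb, while each of the 10 genes had at least 1. Among genes with a region the shares would therefore be higher. The gained Slc1a2 region, chr2:102658649-102659056, lay inside the gene near the 5′ end of its span. It had scores of 54.3, 62.2 and 68.6 in Pard3HMKO libraries and no peak in Pard3WT libraries. The lost Rgn region inside the gene, chrX:20552210-20552499, had no peak in Pard3HMKO and scores of 98.0, 67.2 and 70.3 in Pard3WT libraries. With peaks of a score of 100 or more, the Slc1a2, Lect2 and Rgn regions were not counted, no gene had a gained region and 3 had a lost one, Cyp2e1 and, through regions with weaker peaks in Pard3HMKO, Glul and Cyp1a2. With a peak in at least 2 of 3 libraries of 1 genotype against none, 3 genes had a gained and 4 a lost region, 6 in all. Promoters of 7 of the 10 genes were in the table, without Lgr5, Rgn and Rhbg. CTTTGA or TCAAAG stood in 4 of these 7, those of Cyp2e1, Lect2, Cyp1a2 and, at the start inside the gene, Slc1a2, and in 13.8% of all 32851 promoters in the table. TATAAA, searched on both strands like the first motif, stood in those of Cyp2e1 and Cyp1a2 and in 12.4% of all promoters. Among all promoters, 29.2% had a peak in all 6 libraries and 58.0% in none.

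In wild-type embryos, Cyp2e1, Glul, Rgn and Cyp1a2 rose with embryonic day, whereas Lgr5, Axin2, Rhbg and Oat fell. These 8 of 10 genes compare with 35.6% of all 15662 genes called in either direction by edgeR's quasi-likelihood test with Benjamini-Hochberg adjustment (adjusted p under 0.05), 18.5% higher and 17.1% lower. The median slope of the 10 genes was -0.12 log2 per day, against -0.01 for all genes tested. Depth was uneven, with medians of 114249 to 185866 reads per cell in the E15.5 and E16.5 libraries. In the other wild-type libraries the medians were 499737 to 1043232 reads per cell.

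**Figure D1:**
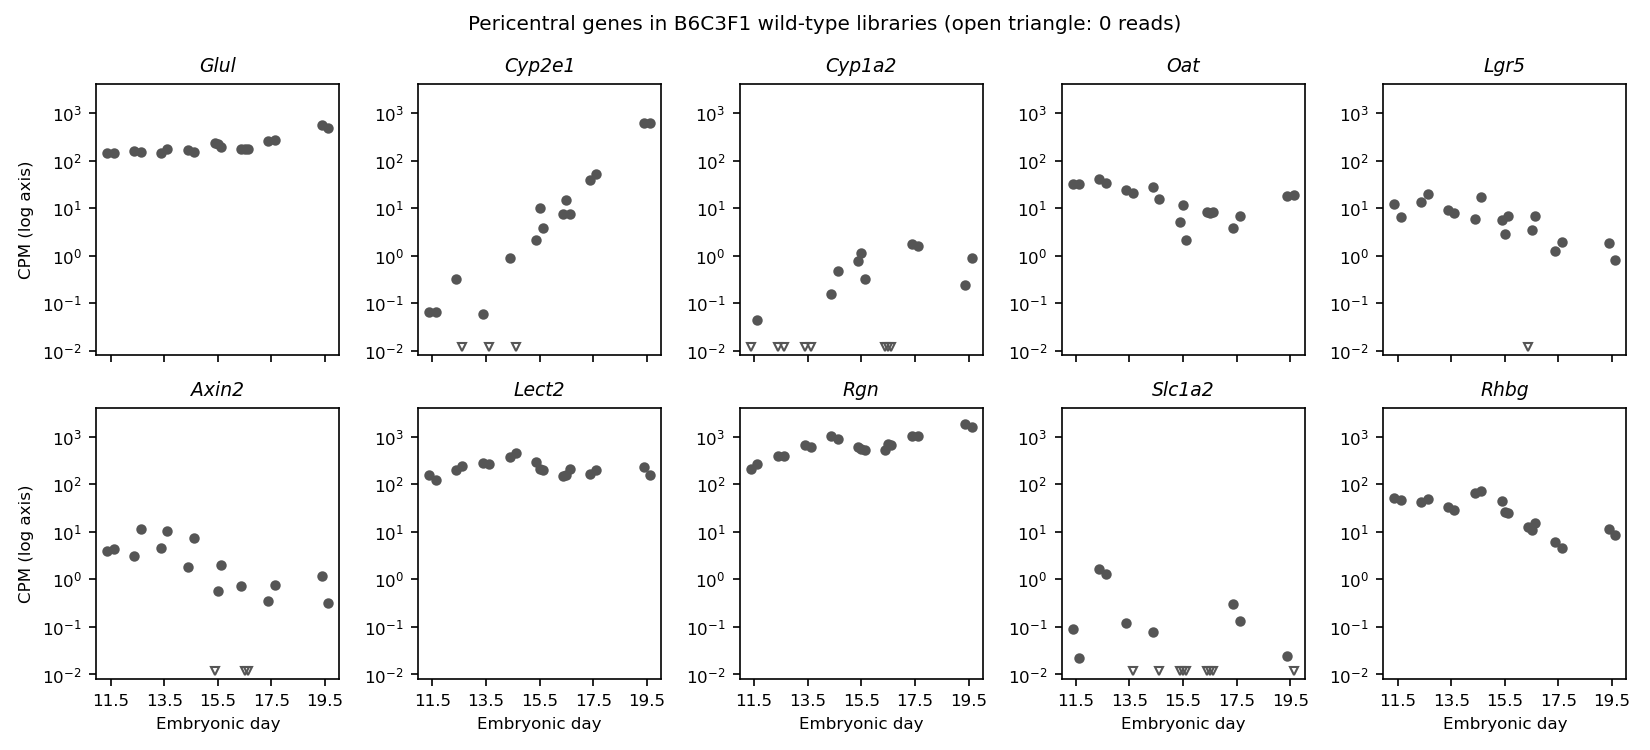
CPM of each gene in B6C3F1 wild-type libraries (points, log axis) by embryonic day, with open triangles for 0 reads. Cyp2e1 climbed from at most 0.324 CPM up to E13.5 to 617 and 628 CPM at E19.5, while Rhbg and Lgr5 were lower at E17.5 and E19.5 than at E11.5.

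Among the enzymes, Glul was at 144 and 143 CPM at E11.5, 168 and 153 CPM at E14.5, 262 and 267 CPM at E17.5, and 571 and 494 CPM at E19.5. It stayed within 143 to 239 CPM up to E16.5 and was above that in every later library, with a slope of 0.21 ± 0.03 log2 per day (SE, adjusted p = 9.22e-06). Cyp2e1, which oxidises ethanol and acetaminophen, was at 2.14, 10.3 and 3.77 CPM at E15.5, 39.5 and 51.4 CPM at E17.5, and 617 and 628 CPM at E19.5. Cyp1a2, a cytochrome of caffeine metabolism, had 0 reads in all 4 libraries at E12.5 and E13.5. It also had 0 reads in all 3 libraries at E16.5, where 3 reads over the group would be 0.17 CPM. Cyp1a2 was at 1.80 and 1.63 CPM at E17.5 and 0.244 and 0.898 CPM at E19.5. Its slope of 0.84 ± 0.27 (adjusted p = 0.0183) therefore rested on levels of at most 1.80 CPM, and with each cell weighted equally the call was lost (adjusted p = 0.0639). Rgn, the gluconolactonase of vitamin C synthesis, was at 214 and 273 CPM at E11.5, 1029 and 908 CPM at E14.5, and 1889.7 and 1601 CPM at E19.5 (0.28 ± 0.04, adjusted p = 1.65e-05). Oat, which makes glutamate from ornithine, was at 32.9 and 31.8 CPM at E11.5, 3.84 and 6.83 CPM at E17.5, and 18.2 and 19.3 CPM at E19.5. The E19.5 levels of Oat lay above those of E15.5 to E17.5, so its slope of -0.20 ± 0.07 (adjusted p = 0.0344) does not describe a steady fall, and without any 1 of 6 libraries of E11.5, E12.5 or E17.5 the call was lost (adjusted p 0.0532 to 0.0707).

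Among the Wnt pathway genes, Lgr5, the R-spondin receptor, was at 12.4 and 6.51 CPM at E11.5 and at 1.81 and 0.825 CPM at E19.5, a slope of -0.48 ± 0.10 (adjusted p = 0.000952). Axin2, the feedback inhibitor of beta-catenin, was at 3.96 and 4.47 CPM at E11.5 and at 1.20 and 0.312 CPM at E19.5 (-0.54 ± 0.14, adjusted p = 0.00516). Neither exceeded 1.96 CPM in any library of E17.5 or E19.5. Among the transporters, Rhbg, an ammonia channel, was at 52.7 and 46.7 CPM at E11.5, 64.7 and 72.0 CPM at E14.5, 12.54, 10.9 and 15.4 CPM at E16.5, 6.15 and 4.50 CPM at E17.5, and 11.6 and 8.76 CPM at E19.5. Rhbg was highest at E14.5 and lowest at E17.5, with a slope of -0.38 ± 0.08 (adjusted p = 0.000443). Slc1a2, a glutamate transporter, did not exceed 1.67 CPM in any of the 18 libraries. It had 0 reads in all 6 libraries of E15.5 and E16.5, which held the fewest reads of the 18. The secreted factor Lect2 ran between 125 CPM at E11.5 and 467 CPM at E14.5, and stood at 232 and 160.5 CPM at E19.5, with no call (adjusted p = 0.672).

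Around birth most of the set rose in the Foxa3Cre Pard3WT libraries, 5 of the 10 genes between E19.5 and P0 and 6 between P0 and P14. Over all 18572 genes tested, 7.23% rose and 7.17% fell between E19.5 and P0 (14.4% in either direction), and 8.31% rose and 11.1% fell between P0 and P14. The median log2 change of the 10 genes was 1.89 for the earlier step and 2.07 for the later step, against 0.0 for all genes in both. Cyp2e1 was at 1479.7 and 1783 CPM at P0 against 38.6 and 25.3 CPM at E19.5 (5.67 ± 0.70, adjusted p = 1.87e-06), and Cyp1a2 at 49.1 and 50.0 CPM against 0.760 and 0.315 CPM (6.55 ± 1.32, adjusted p = 0.00098). Glul was at 214 and 205 CPM at P0 against 125 and 127 CPM at E19.5 (0.73 ± 0.21, adjusted p = 0.0169), a call lost without any 1 of the 4 libraries (adjusted p 0.0632 to 0.12). Oat (1.85 ± 0.37, adjusted p = 0.000479) and Rhbg (1.94 ± 0.39, adjusted p = 0.000543) also rose, whereas Rgn fell by 0.79 ± 0.13 on the log2 scale (adjusted p = 1.98e-05).

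Between P0 and P14, Slc1a2 was at 46.9 and 85.8 CPM at P14 against 0.0583 and 1.26 CPM at P0 (6.65 ± 1.31, adjusted p = 0.000315). Oat was at 280.3 and 389 CPM against 33.2 and 17.2 CPM (3.73 ± 0.38, adjusted p = 9.51e-09), and Lgr5 at 6.22 and 8.86 CPM against 0.612 and 0.703 CPM (3.51 ± 0.78, adjusted p = 0.000886). Lect2 was at 467 and 542 CPM at P14 against 115 and 134 CPM at P0 (2.02 ± 0.19, adjusted p = 2.35e-10). Cyp2e1 rose further, by 2.12 ± 0.59 (adjusted p = 0.0116), a call lost without any 1 of the 4 libraries (adjusted p 0.054 to 0.117). Glul stayed near its P0 level, at 209 and 278 CPM at P14 (0.22 log2, adjusted p = 0.548), and Cyp1a2, at 323 and 327 CPM at P14, missed the threshold (2.71 ± 1.00, adjusted p = 0.0635). The call on Rgn (0.46 ± 0.13, adjusted p = 0.00718) was lost without P0 Pard3WT replicate 1 (adjusted p = 0.131), and without marker-holding cells its change was -0.18 (adjusted p = 0.798).

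Foxa3Cre Pard3HMKO libraries were then set against Pard3WT libraries stage by stage. At E11.5, E13.5 and E15.5 edgeR's quasi-likelihood test called none of the 10 genes, while 0.0754% (0.0485% higher, 0.0269% lower), 0.0% and 0.237% of all 18572 genes were called. At an unadjusted p under 0.05, 0 of the 10 genes passed at E11.5, 0 at E13.5 and 3 at E15.5, with 513, 665 and 1441 of all genes, and DESeq2 called none of the 10 at these stages. Glul, for example, was at 74.5 and 69.6 CPM in E11.5 Pard3HMKO against 73.9 and 70.7 CPM in Pard3WT libraries. Rhbg at E15.5 was at 20.5 and 22.4 CPM in Pard3HMKO against 37.3 and 41.6 CPM in Pard3WT libraries, groups that did not overlap (-0.88 ± 0.36, adjusted p = 0.519). Here and below, the share of all genes without overlap was not counted. With 2 libraries per group, a lack of overlap describes the values only.

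At E17.5, Rhbg, Lect2 and Lgr5 rose and Rgn fell in Foxa3Cre Pard3HMKO libraries, while Glul, Cyp2e1, Cyp1a2, Oat, Axin2 and Slc1a2 were not called. These 4 of 10 genes compare with 14.9% of all genes called, 7.09% higher and 7.86% lower, and the median log2 change of the 10 genes was 0.29 against 0.0 for all genes. Rhbg was at 38.3 and 44.7 CPM in Pard3HMKO against 4.65 and 8.05 CPM in Pard3WT libraries, a change of 2.69 ± 0.39 (adjusted p = 7.61e-06). Lect2 was at 271 and 300.2 CPM in Pard3HMKO against 160.2 and 184 CPM in Pard3WT libraries (0.73 ± 0.18, adjusted p = 0.004). Lgr5 was at 4.82 and 4.63 CPM in Pard3HMKO against 0.427 and 1.66 CPM in Pard3WT libraries (2.15 ± 0.74, adjusted p = 0.0447). The groups did not overlap for any of these 3 genes, and the E17.5 Pard3HMKO levels of Rhbg lay within the range of the younger E13.5 and E15.5 Foxa3Cre libraries (20.5 to 70.5 CPM).

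Rgn, which is X-linked, was at 938 and 909.5 CPM in E17.5 Foxa3Cre Pard3HMKO against 1088 and 1428 CPM in Pard3WT libraries (-0.45 ± 0.13, adjusted p = 0.0131). Glul was at 153 and 145 CPM in Pard3HMKO against 163 and 209 CPM in Pard3WT libraries (-0.32 log2, adjusted p = 0.379), and Cyp2e1 at 238 and 120.2 CPM against 104 and 203 CPM, with overlapping groups. Slc1a2 had 0 reads in both Pard3HMKO libraries, where 3 reads over the group would be 0.10 CPM, and 0.0854 and 0.0286 CPM in Pard3WT libraries. The Lgr5 call was lost without Pard3WT replicate 1 (adjusted p = 0.367) or either Pard3HMKO library (0.125 and 0.131), and the Lect2 call without Pard3WT replicate 1 (0.0727) or Pard3HMKO replicate 2 (0.0631). The Rgn call was lost without Pard3WT replicate 2 (adjusted p = 0.42) or either Pard3HMKO library (0.0619 and 0.119), and with each cell weighted equally in limma, which moved the median of all genes by 0.31, its change was 0.27, in the other direction. Of 8 hepatocyte markers, 2 rose and 6 fell in the same comparison, with summed levels of 168242 to 222582 CPM in Pard3HMKO and 422826 to 466961 CPM in Pard3WT libraries. Stellate markers summed to 112 to 116 CPM in Pard3HMKO and 45.7 to 52.8 CPM in Pard3WT libraries. Biliary markers summed to 32.7 to 48.6 CPM in Pard3HMKO and 103 to 127 CPM in Pard3WT libraries. The part of these markers in the E17.5 results was not tested.

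The AlfpCre line at E17.5 gave calls on the same 4 genes, all higher in Pard3HMKO. Over all genes 5.28% were called, 2.23% higher and 3.05% lower, and the median log2 change of the 10 genes was 0.87 against 0.0. Rhbg was at 47.6 and 23.3 CPM in AlfpCre Pard3HMKO against 1.75 and 4.63 CPM in Pard3WT libraries, and Lgr5 at 3.86 and 4.32 CPM against 0.143 and 0.234 CPM. Lect2 was at 322.5 and 293 CPM against 73.5 and 100.0 CPM. None of these groups overlapped, and the changes were 3.48 ± 0.41 for Rhbg, 4.42 ± 0.86 for Lgr5 and 1.83 ± 0.19 for Lect2. Rgn was at 756 and 717 CPM in Pard3HMKO against 525 and 545 CPM in Pard3WT libraries (0.46 ± 0.13, adjusted p = 0.0237), a call lost without any 1 of the 4 libraries (adjusted p 0.097 to 0.182). Axin2, at 2.09 and 2.26 CPM in Pard3HMKO against 0.143 and 0.0778 CPM in Pard3WT libraries, missed the threshold (4.24 ± 1.3, adjusted p = 0.0524). Cyp2e1 was at 9.24 and 8.22 CPM against 18.7 and 33.4 CPM, without overlap (-1.58 log2, adjusted p = 0.186). Glul was at 91.3 and 117 CPM in AlfpCre Pard3HMKO against 85.8 and 105 CPM in Pard3WT libraries, and Oat at 12.4 and 11.9 CPM against 7.58 and 10.1 CPM, neither called. Of the 8 hepatocyte markers, 6 fell here too, with summed levels of 180050 to 188568 CPM in AlfpCre Pard3HMKO and 285895 to 322326 CPM in Pard3WT libraries. Macrophage and myeloid markers summed to 24.7 to 53.0 CPM in Pard3HMKO and 115 to 121 CPM in Pard3WT libraries. Biliary markers summed to 44.2 to 50.1 against 92.8 to 95.4 CPM, and endothelial markers to 21.9 to 25.2 against 20.4 to 21.7 CPM, in the same order. The part of these markers in the AlfpCre results was not tested.

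The change differed between the lines for 2 of the 10 genes, with 2.91% of all genes called for the difference. Lect2 changed more in AlfpCre than in Foxa3Cre, by 1.10 ± 0.25 log2 (adjusted p = 0.0109), a call lost without any 1 of 4 libraries (adjusted p 0.0514 to 0.0997). Those were Foxa3Cre Pard3WT replicate 2, Foxa3Cre Pard3HMKO replicate 1, AlfpCre Pard3WT replicate 1 and AlfpCre Pard3HMKO replicate 1. Rgn differed by 0.91 ± 0.18 (adjusted p = 0.00278), being higher in Pard3HMKO in AlfpCre and lower in Foxa3Cre. Xist was at 61.9 and 53.3 CPM in AlfpCre Pard3HMKO and 81.2 and 86.1 CPM in AlfpCre Pard3WT libraries, so the Xist imbalance of the E17.5 Foxa3Cre groups was not shared.

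**Figure D2:**
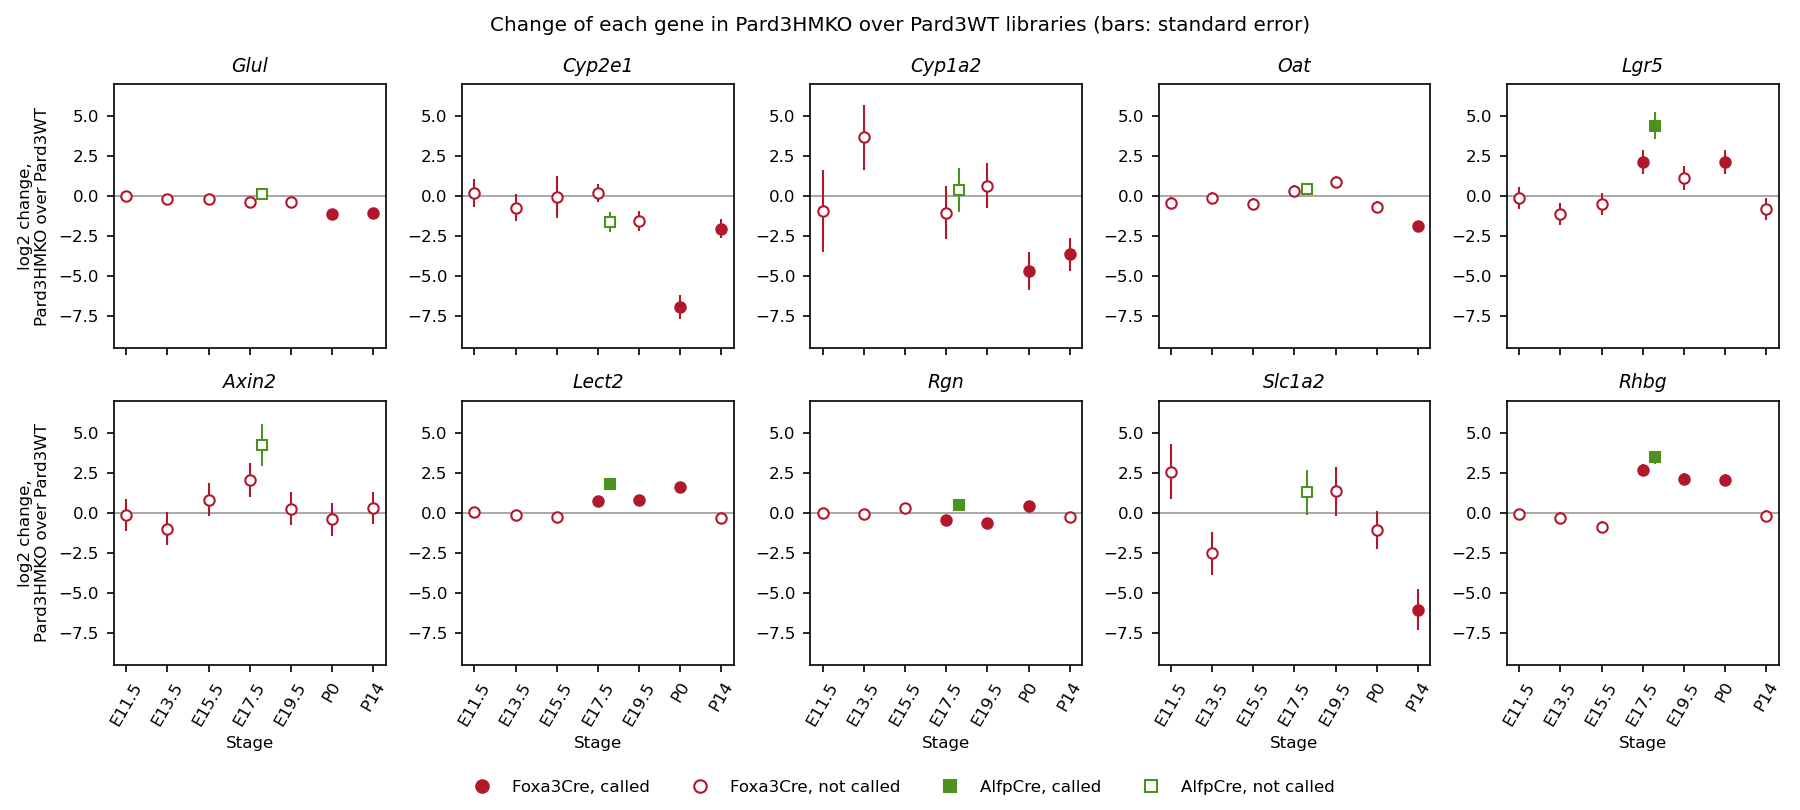
Log2 change of each gene in Pard3HMKO over Pard3WT libraries (y axis) by stage (x axis), for Foxa3Cre (circles) and AlfpCre (squares), with standard errors as bars and filled symbols for called changes. Comparisons with 0 reads in a group are left out. Rhbg, Lect2 and Lgr5 have filled symbols above 0 at E17.5 and P0, and Glul, Cyp2e1 and Cyp1a2 have filled symbols below 0 at P0 and P14.

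At E19.5, Rhbg and Lect2 were again higher and Rgn again lower in Foxa3Cre Pard3HMKO libraries, and no other member was called. Over all genes 6.95% were called, 3.01% higher and 3.94% lower, and the median log2 change of the 10 genes was 0.75 against 0.0. Rhbg was at 17.2 and 15.6 CPM in Pard3HMKO against 3.76 and 3.75 CPM in Pard3WT libraries (2.13 ± 0.39, adjusted p = 0.000503). Lect2 was at 196 and 152 CPM against 106 and 91.9 CPM (0.82 ± 0.18, adjusted p = 0.00304), a call lost without Pard3WT replicate 2 (0.0725) or Pard3HMKO replicate 1 (0.116). Rgn was at 622 and 638 CPM in Pard3HMKO against 987 and 964 CPM in Pard3WT libraries (-0.63 ± 0.13, adjusted p = 0.00117). The groups did not overlap for these 3 genes, nor for Cyp2e1, at 12.0 and 9.99 CPM in Pard3HMKO against 38.6 and 25.3 CPM in Pard3WT libraries (-1.53 log2, adjusted p = 0.17). Glul, at 101 and 95.2 CPM in Pard3HMKO against 125 and 127 CPM in Pard3WT libraries, also did not overlap and was not called (-0.36 log2, adjusted p = 0.385). The change of none of the 10 genes was called as different between E19.5 and E17.5, where 3.62% of all genes were. At an unadjusted p under 0.05, 1 of the 10 passed. Hepatocyte markers summed to 240968 to 249775 CPM in E19.5 Pard3HMKO and 302821 to 305558 CPM in Pard3WT libraries, with 3 of 8 lower. Macrophage and myeloid markers summed to 52.95 to 87.4 CPM in Pard3HMKO and 118 to 197 CPM in Pard3WT libraries, with 0 of 11 called. Biliary markers summed to 63.7 to 67.6 CPM in Pard3HMKO and 87.9 to 89.4 CPM in Pard3WT libraries, with 0 of 8 called. Krt7 and Cftr were at 0 in both groups, and Krt19 and Sox4 in Pard3HMKO only. The part of these markers in the E19.5 results was not tested.

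At P0 the members moved in both directions. Cyp2e1, Cyp1a2 and Glul fell in Foxa3Cre Pard3HMKO libraries, and Lect2, Rhbg, Lgr5 and Rgn rose. These 7 of 10 genes compare with 21.8% of all genes called, 10.5% higher and 11.3% lower, and their median log2 change over all 10 was -0.54 against -0.02. Cyp2e1 was at 16.9 and 9.77 CPM in Pard3HMKO against 1479.7 and 1783 CPM in Pard3WT libraries, a change of -6.92 ± 0.75 (adjusted p = 1.52e-07). Cyp1a2 was at 2.59 and 1.24 CPM against 49.1 and 50.0 CPM (-4.67 ± 1.16, adjusted p = 0.00467), a call lost without Pard3HMKO replicate 2 (adjusted p = 0.0683). Glul was at 103 and 89.6 CPM in Pard3HMKO against 214 and 205 CPM in Pard3WT libraries (-1.12 ± 0.22, adjusted p = 0.000175). In P0 Pard3HMKO libraries, Glul and Cyp2e1 were close to their E19.5 Pard3HMKO levels, which were 101 and 95.2 CPM for Glul and 12.0 and 9.99 CPM for Cyp2e1. The step from E19.5 to P0 was not tested in Pard3HMKO.

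Lect2, Rhbg and Lgr5, called higher at E17.5, were called higher at P0 too. Lect2 was at 396 and 362 CPM in Pard3HMKO against 115 and 134 CPM in Pard3WT libraries (1.61 ± 0.18, adjusted p = 2.12e-08). Rhbg was at 65.5 and 53.9 CPM against 15.2 and 13.6 CPM (2.05 ± 0.37, adjusted p = 8.85e-05), and Lgr5 at 2.96 and 2.95 CPM against 0.612 and 0.703 CPM (2.16 ± 0.75, adjusted p = 0.0349). The Lgr5 call was lost without any 1 of the 4 libraries (adjusted p 0.0946 to 0.187), and without marker-holding cells its change was -8.37 (adjusted p = 0.423). Rgn was at 784 and 765 CPM in Pard3HMKO against 529 and 599 CPM in Pard3WT libraries (0.46 ± 0.13, adjusted p = 0.00766), opposite in sign to E17.5 and E19.5, and its call was lost without Pard3WT replicate 1 (adjusted p = 0.13) or Pard3HMKO replicate 1 (0.0548). Oat was at 17.9 and 13.9 CPM in P0 Pard3HMKO against 33.2 and 17.2 CPM in Pard3WT libraries, Axin2 at 3.78 and 1.99 CPM against 5.13 and 2.58 CPM, and Slc1a2 at 0.493 and 0.107 CPM against 0.0583 and 1.26 CPM. None of these 3 was called, and the groups overlapped for Axin2 and Slc1a2. Macrophage and myeloid markers moved with these groups, with 7 of 11 markers lower in Pard3HMKO and summed levels of 56.0 to 77.7 CPM in Pard3HMKO and 219 to 748 CPM in Pard3WT libraries. None of the 11 was at 0 in either group. Stellate markers summed to 112.5 to 113 CPM in P0 Pard3HMKO and 7.67 to 42.4 CPM in Pard3WT libraries, with Ngfr and Hand2 at 0 in both. Of the 8 hepatocyte markers, 1 was higher and 6 were lower in P0 Pard3HMKO, with summed levels of 148424 to 170869 CPM in Pard3HMKO and 205133 to 218575 CPM in Pard3WT libraries. Biliary markers summed to 34.2 to 35.7 CPM in P0 Pard3HMKO and 47.0 to 54.3 CPM in Pard3WT libraries. Lymphoid markers summed to 21.5 to 26.0 against 2.66 to 18.4 CPM, in the same order. The part of these markers in the P0 results was not tested.

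**Figure D3:**
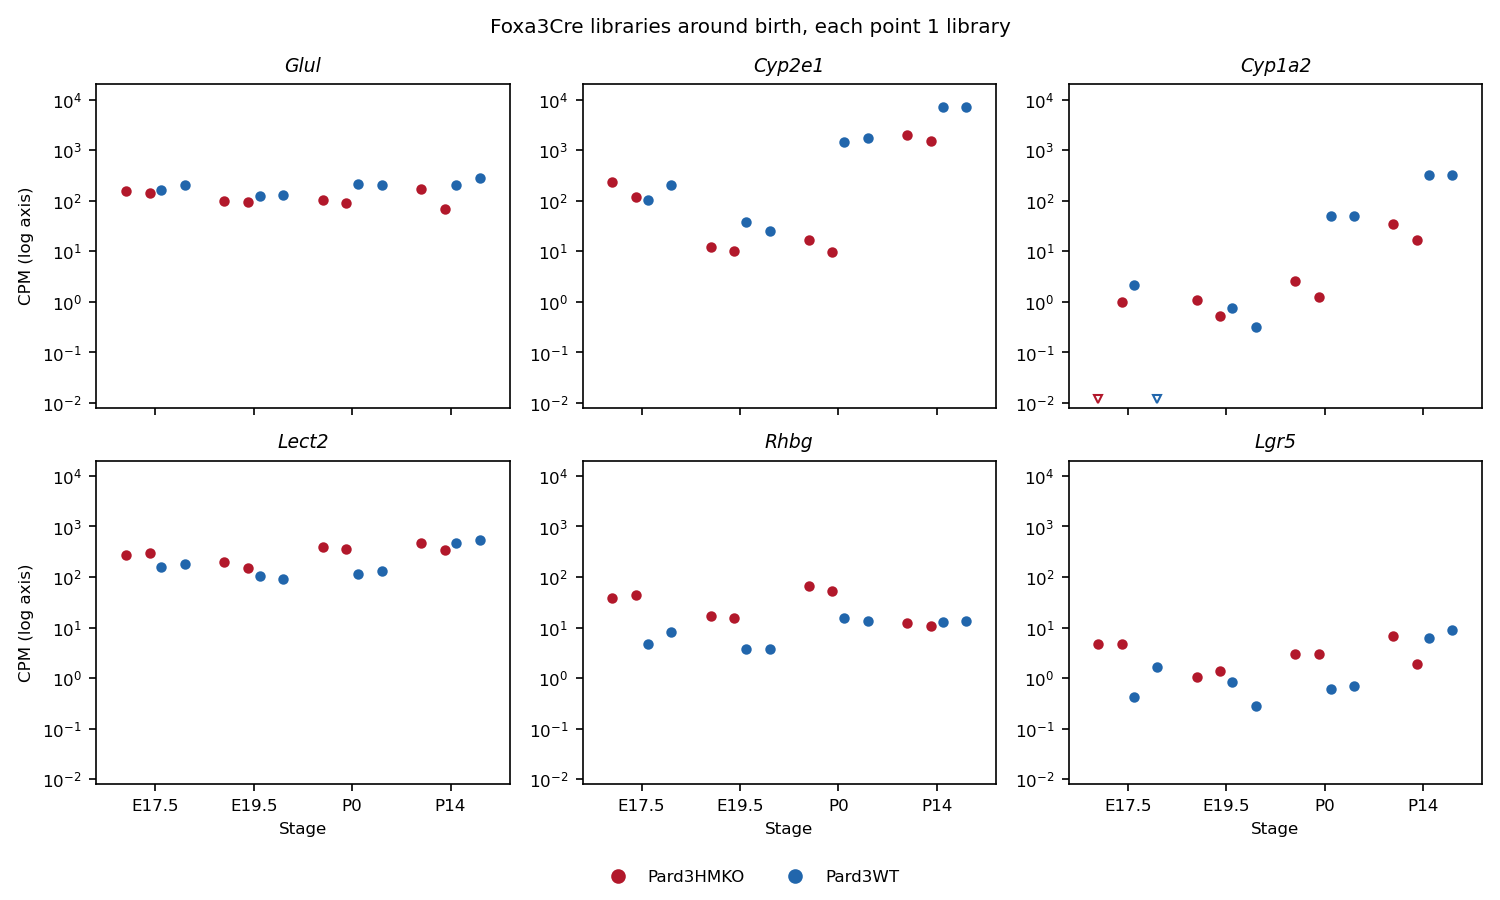
CPM per library (points, log axis) of 6 genes by stage in Foxa3Cre Pard3HMKO (left of each pair) and Pard3WT libraries, with open triangles for 0 reads. Cyp2e1 and Cyp1a2 separate the genotypes at P0 and P14, and Rhbg at E17.5, E19.5 and P0, whereas at P14 all 4 libraries hold 10.7 to 13.54 CPM of Rhbg.

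At P14, Glul, Cyp2e1, Cyp1a2, Oat and Slc1a2 fell in Foxa3Cre Pard3HMKO libraries and no member rose. Over all genes 16.7% were called, 8.99% higher and 7.67% lower, and the median log2 change of the 10 genes was -0.91 against 0.0. Slc1a2 was at 1.38 and 0.576 CPM in Pard3HMKO against 46.9 and 85.8 CPM in Pard3WT libraries (-6.06 ± 1.28, adjusted p = 0.000896). Oat was at 97.8 and 83.3 CPM against 280.3 and 389 CPM (-1.88 ± 0.35, adjusted p = 0.000225), and Glul at 169 and 69.1 CPM against 209 and 278 CPM (-1.03 ± 0.22, adjusted p = 0.000667). Cyp2e1 was at 1965 and 1506 CPM in Pard3HMKO against 7125 and 7024 CPM in Pard3WT libraries (-2.03 ± 0.59, adjusted p = 0.018), and Cyp1a2 at 35.2 and 17.2 CPM against 323 and 327 CPM (-3.63 ± 1.05, adjusted p = 0.0178). No group overlapped for these 5 genes. The calls on Cyp2e1 and Cyp1a2 were lost without any 1 of the 4 libraries (adjusted p 0.0745 to 0.159 and 0.0678 to 0.173), and DESeq2 gave adjusted p of 0.154 and 0.145. The Glul call was lost when only the 4 compared libraries were fitted (adjusted p = 0.239), and without marker-holding cells its change was 1.20 (adjusted p = 0.036), in the other direction, and that of Slc1a2 0.0945 (adjusted p = 1.0).

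Rhbg, Lect2 and Lgr5 were not called at P14. Rhbg was at 12.45 and 10.7 CPM in Pard3HMKO against 12.6 and 13.54 CPM in Pard3WT libraries, Lect2 at 466.3 and 342 CPM against 467 and 542 CPM, and Lgr5 at 6.71 and 1.90 CPM against 6.22 and 8.86 CPM. Axin2 was at 4.86 and 15.3 CPM against 7.64 and 8.62 CPM, and Rgn at 672 and 629 CPM against 777 and 781 CPM. None of these 5 genes was called, which does not show that their levels were the same. Biliary markers also moved at P14, with 3 of 8 tested markers higher in Pard3HMKO and summed levels over 9 markers of 69.3 to 118 CPM in Pard3HMKO and 19.6 to 22.1 CPM in Pard3WT libraries, Krt7 being at 0 in both groups. Hepatocyte markers summed to 169559 to 183768 CPM in P14 Pard3HMKO and 140015 to 148043 CPM in Pard3WT libraries, with 5 of 8 higher and 1 lower. Macrophage and myeloid markers summed to 186 to 282 CPM in P14 Pard3HMKO and 304 to 347 CPM in Pard3WT libraries. Endothelial markers summed to 24.5 to 30.8 against 43.2 to 55.1 CPM, and erythroid markers to 216 to 291 against 391 to 874 CPM, in the same order. Stellate and lymphoid sums overlapped. The part of these markers in the P14 results was not tested.

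Values per cell were then compared within the libraries. At P0, the median cell held 7.37 and 6.12 CPM of Cyp2e1 in the Pard3HMKO libraries against 831 and 808 CPM in the Pard3WT libraries. The highest of 30 and 25 Pard3HMKO cells reached 94.4 and 92.6 CPM, below the lower quartiles of 351 and 244 CPM of the 58 and 60 Pard3WT cells. Cyp1a2 reads were found in 30.0% and 8.0% of P0 Pard3HMKO cells against 67.2% and 73.3% of Pard3WT cells, and after thinning each cell to 100000 reads in 23.3% and 4.00% against 50.0% and 60.0%. At E17.5, Rhbg reads were found in 76.5% and 87.1% of Foxa3Cre Pard3HMKO cells against 14.55% and 33.3% of Pard3WT cells, and after thinning in 71.9% and 74.2% against 9.09% and 21.7%. In AlfpCre the Rhbg shares were 61.2% and 41.4% in Pard3HMKO against 18.9% and 25.0% in Pard3WT libraries. Lgr5 was found in 26.5% and 25.8% of Foxa3Cre Pard3HMKO cells against 3.64% and 10.0% of Pard3WT cells. The Lect2 median per cell at P0 was 346 and 315 CPM in Pard3HMKO against 65.4 and 50.0 CPM in Pard3WT libraries.

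At P14 the Pard3WT signal of Slc1a2 and Glul sat in few cells. The top 10% of cells held 98.3% and 95.5% of the Slc1a2 CPM and 88.7% and 87.5% of the Glul CPM in the Pard3WT libraries. In Pard3HMKO libraries the top 10% of cells held 67.3% and 30.4% of the Glul CPM, with highest cells at 1326 and 287 CPM against 2627 and 3899 CPM in Pard3WT libraries. The highest Slc1a2 cells reached 29.1 and 7.29 CPM in Pard3HMKO against 856 and 1642 CPM in Pard3WT libraries. Cells with Glul at 500 CPM or more, a cut on a continuous level and not a cell type, numbered 3 of 35 and 0 of 24 in P14 Pard3HMKO and 6 of 56 and 5 of 57 in Pard3WT libraries, and none at P0 in either genotype. Their exact 95% binomial intervals were 1.80% to 23.1% and up to 14.2% in Pard3HMKO, and 4.03% to 21.9% and 2.91% to 19.3% in Pard3WT libraries. These intervals cover counting error within a library only, and the difference between genotypes was not tested. At a cut of 100 CPM the counts were 9 and 6 in Pard3HMKO and 7 and 9 in Pard3WT libraries, and at 2000 CPM they were 0 and 0 in Pard3HMKO and 3 and 3 in Pard3WT libraries. In the 6 and 5 Pard3WT cells past 500 CPM Slc1a2 averaged 423 and 770.3 CPM, against 9.69 CPM in the 3 Pard3HMKO cells, and Cyp1a2 1372 and 1147 CPM against 142 CPM.

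**Figure D4:**
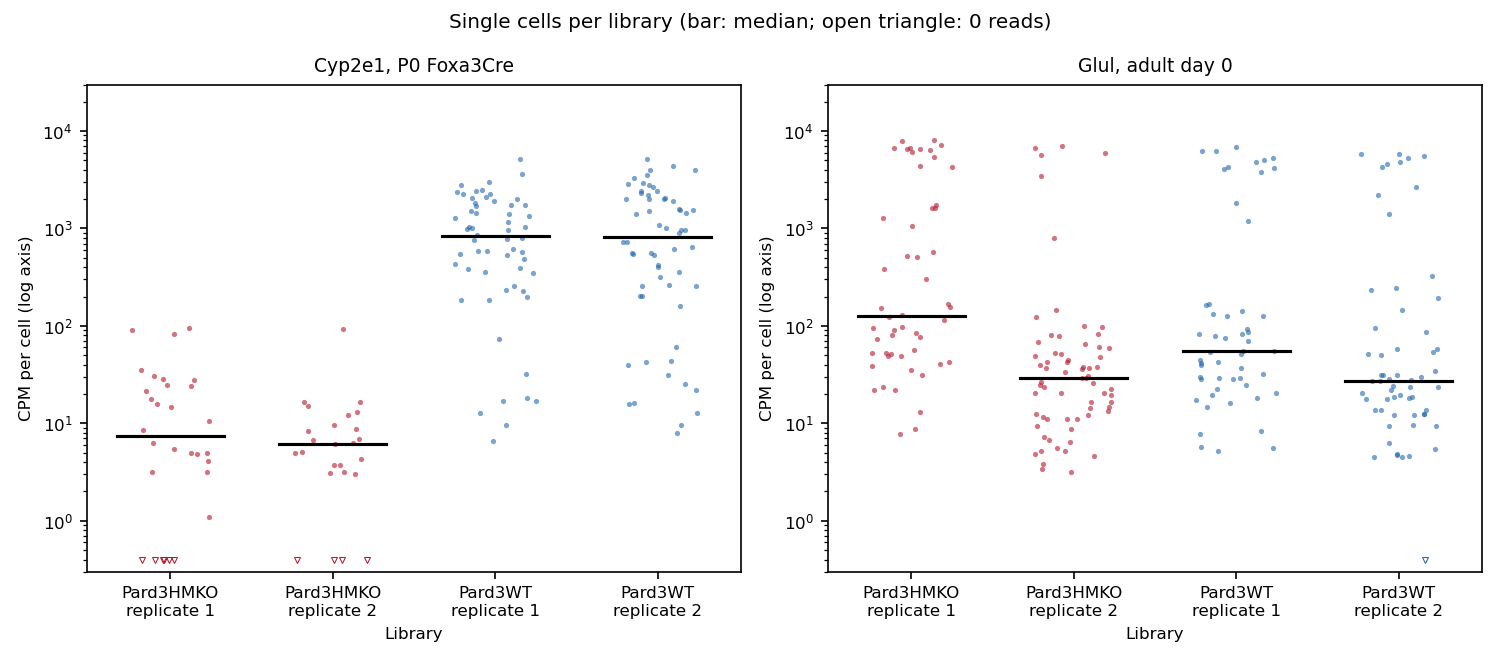
CPM per cell (points, log axis) by library, with medians as bars and open triangles for cells with 0 reads, for Cyp2e1 at P0 in Foxa3Cre (left) and Glul in adults on day 0 (right). P0 Pard3HMKO cells stay at or below 94.4 CPM of Cyp2e1, and a minority of adult cells of both genotypes stands above 500 CPM of Glul.

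Other genes of the pathway were counted in lists by role, which are read against the shares of all genes called. Those were 7.09% higher and 7.86% lower at E17.5, 3.01% and 3.94% at E19.5, 10.5% and 11.3% at P0, 8.99% and 7.67% at P14, and 2.23% and 3.05% in AlfpCre, in the same order. Of 12 Wnt feedback genes and targets, 5 rose and 1 fell in E17.5 Foxa3Cre Pard3HMKO, 1 rose and 1 fell at E19.5, 2 rose and 1 fell at P0, 2 rose at P14, and 2 rose and 1 fell in AlfpCre. Ccnd1, the G1 cyclin, averaged 59.2 CPM in E17.5 Foxa3Cre Pard3HMKO against 5.13 CPM in Pard3WT libraries (3.51 ± 0.24, adjusted p = 2.56e-12), 50.7 against 6.69 CPM at P0 and 44.0 against 14.7 CPM in AlfpCre (1.58 ± 0.22). Rnf43, which removes Frizzled from the membrane, averaged 13.6 against 3.66 CPM at E17.5 (1.88 ± 0.30, adjusted p = 2.02e-05), whereas Myc fell there to 25.8 CPM, against 80.2 CPM. Median log2 changes of this list were 1.51 at E17.5, 0.12 at E19.5, 0.47 at P0 and -0.52 at P14.

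Of 18 Wnt signal transduction genes, 5 rose and 1 fell at E17.5, 2 rose at E19.5, 4 rose at P0, 2 rose and 2 fell at P14, and 2 rose in AlfpCre. At 2 of 18 genes each way, the P14 counts are near the share of all genes. Ctnnb1, which encodes beta-catenin, averaged 174 CPM in E17.5 Foxa3Cre Pard3HMKO against 56.7 CPM in Pard3WT libraries (1.62 ± 0.12, adjusted p = 1.28e-11), 183 against 79.6 CPM at P0 and 169 against 115 CPM in AlfpCre. Tcf7l2, a TCF factor, averaged 99.1 against 49.4 CPM at E17.5 and 67.7 against 147 CPM at P14, with a call in opposite directions. Of 18 tested Wnt ligands and receptors, 2 rose at E17.5, among them Fzd7 (8.37 against 0.934 CPM), and 4 fell at P0, among them Wnt4 (0.164 against 20.9 CPM) and Fzd4 (4.93 against 19.7 CPM).

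Of 20 other pericentral genes, 1 rose and 8 fell at E17.5, 2 rose and 7 fell at E19.5, 4 rose and 11 fell at P0, and 2 rose and 5 fell at P14 in Foxa3Cre Pard3HMKO, with 3 up and 6 down in AlfpCre. Nr1i3, the nuclear receptor CAR, averaged 1.42 CPM in P0 Pard3HMKO against 62.6 CPM in Pard3WT libraries (-5.45 ± 0.56, adjusted p = 1.93e-09), and Cyp7a1, of bile acid synthesis, 8.78 against 118 CPM at E19.5. Gulo, which catalyses the last step of vitamin C synthesis, rose at E17.5 in both lines (157 against 47.6 CPM in Foxa3Cre, 95.6 against 31.5 CPM in AlfpCre). The glutathione transferase Gstm1 averaged 891 CPM in P0 Pard3HMKO against 306 CPM in Pard3WT libraries and 1326 against 4375 CPM at P14, called in opposite directions.

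Genes of the opposite, periportal pole were counted too. Of 16 periportal genes, 1 rose and 7 fell at E17.5, 1 rose and 6 fell at E19.5, 1 rose and 11 fell at P0, and 3 rose and 4 fell at P14. Cps1, the urea cycle entry enzyme, averaged 113 CPM in P0 Foxa3Cre Pard3HMKO against 1152 CPM in Pard3WT libraries (-3.36 ± 0.31, adjusted p = 9.51e-09), and Arg1 114 against 941 CPM. The median log2 change at P0 was -2.42 for the periportal list and -1.60 for the other pericentral list. A difference between those lists was not tested.

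In adult liver the single-cell table resolved the pericentral zone. On day 0, none of the 10 genes was called between Pard3HMKO and Pard3WT libraries by edgeR, and 0.0% of all 15391 genes were. At an unadjusted p under 0.05, 0 of the 10 and 994 of all genes passed, and DESeq2 called none of the 10. Glul was at 1567 and 459 CPM in Pard3HMKO against 938 and 624.9 CPM in Pard3WT libraries, Cyp2e1 at 8845 and 5946 CPM against 6869.9 and 6626 CPM, and Slc1a2 at 491 and 137 CPM against 238 and 199.6 CPM. The Pard3HMKO libraries lay on either side of both Pard3WT libraries for these 3 genes, and the groups overlapped for all 10.

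Glul was carried by a minority of cells. Cells at 500 CPM or more numbered 20 of 52 (38.5%) and 6 of 67 (8.96%) in day 0 Pard3HMKO and 12 of 53 (22.6%) and 10 of 60 (16.7%) in Pard3WT libraries. Between 250 and 1000 CPM there were 5 and 1 cells in Pard3HMKO and 0 and 1 in Pard3WT libraries, so few cells lay near the cut. At a cut of 2000 CPM the counts were 12 and 5 in Pard3HMKO and 10 and 9 in Pard3WT libraries. The top 10% of cells held 41.6% and 93.9% of the Glul CPM in Pard3HMKO and 52.9% and 71.2% in Pard3WT libraries. Over these 4 libraries, the top 10% of cells held 36.6% to 97.0% of Slc1a2 and 56.5% to 91.7% of Rhbg. The same share was 34.2% to 66.4% for Oat, 20.8% to 31.0% for Cyp2e1 and 19.55% to 30.6% for Rgn.

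The other 9 genes were higher in Glul-high than in other cells in every adult library with at least 3 Glul-high cells, that is in 11 of 11 libraries over days 0 and 7 and both genotypes. This is a description, since cells of a library share their source and each library was split by its own Glul level. On day 0 Slc1a2 averaged 1230 and 1481 CPM in Glul-high against 72.8 and 6.70 CPM in other cells of the Pard3HMKO libraries, and 932 and 1201 against 40.6 and 29.7 CPM in the Pard3WT libraries. Rhbg averaged 69.6 and 107 against 2.38 and 1.24 CPM in Pard3HMKO, and 44.4 and 85.2 against 1.82 and 1.65 CPM in Pard3WT libraries. The cytochrome Cyp2e1 differed less, at 16404 and 15949 against 5238 and 4868 CPM in Pard3HMKO, and 14933 and 16219 against 4436 and 5197 CPM in Pard3WT libraries.

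Median ratios of Glul-high to other cells over the 11 libraries were 43.4 for Rhbg, 40.5 for Slc1a2, 9.11 for Oat, 8.41 for Lgr5, 5.12 for Lect2, 4.02 for Cyp1a2, 3.28 for Cyp2e1 and 2.49 for Rgn. Axin2 has no such ratio, because its mean in the other cells was not above 0 in every library. Among the genes with a ratio of means, Rhbg and Slc1a2 differed most and Rgn least. All 16 periportal genes were lower in Glul-high cells in 11 of 11 libraries, with a median ratio of 0.015 for Cyp2f2 and 0.0615 for Ass1. Of the 20 other pericentral genes, 18 were higher in 11 of 11, with Gstm3 in 10 and Gstm1 in 9. Of the 12 Wnt feedback genes and targets, Rnf43, Nkd1, Notum, Tnfrsf19 and Tbx3 were higher in 11 of 11, Sp5 and Tcf7 in 10 and Znrf3 in 9, whereas Ccnd1 was lower in 11 of 11 (0.121) and Myc in 7. Doublets were not called, and a doublet would carry genes of both poles.

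Across cells, the gene most like Glul on the mean over libraries was Oat. Over the 4 day 0 libraries the mean Spearman rho with Glul was 0.781 for Oat, 0.738 for the cytochrome Cyp2a5, 0.701 for the transporter Slc13a3, 0.693 for Gulo and 0.686 for Lhpp. Oat did not lead in every library. Slc13a3 was above it in Pard3WT replicate 1 (0.805 against 0.799), and Slc1a2 and Cyp2a5 in Pard3HMKO replicate 1 (0.904 and 0.885 against 0.879). In Pard3HMKO replicate 2 the rho of Oat was 0.685. Further genes with a high mean rho were Lect2 (0.677), Slc1a2 (0.676), Cyp2c38 (0.670) and Cyp2e1 (0.658). Cyp1a2 ranked 12 among 9504 genes, Rgn 19, Rhbg 29, Lgr5 32 and Axin2 75. The cells of a library share its depth and dissociation, genes with few reads per cell are bound to lower rho, and no test was made.

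On day 2 after partial hepatectomy much of the set was far below its day 0 level. In Pard3WT libraries Glul, Cyp2e1, Cyp1a2 and Rgn were called lower, and in Pard3HMKO libraries these 4, Lgr5 and Rhbg were. In both genotypes 0 of the 10 changes were above 0, and 8 passed at an unadjusted p under 0.05 in edgeR's quasi-likelihood test. The difference between genotypes in this response was not called for Lgr5 or Rhbg. Over all genes 9.92% fell in Pard3WT and 10.1% in Pard3HMKO libraries (15.7% and 18.9% in either direction, 5.78% and 8.82% higher), and the median log2 change of the 10 genes was -2.78 and -3.18 against -0.06 and -0.06. In Pard3WT libraries Cyp2e1 was at 251 and 327 CPM on day 2 against 6869.9 and 6626 CPM on day 0 (-4.54 ± 0.41, adjusted p = 9.1e-07), and Rgn at 36.1 and 72.1 CPM against 1473 and 1328 CPM (-4.68 ± 0.35, adjusted p = 1.46e-08). Glul was at 25.1 and 39.9 CPM on day 2 against 938 and 624.9 CPM (-4.57 ± 0.98, adjusted p = 0.00593), a call lost without the 7-cell library, Pard3WT day 2 replicate 1 (adjusted p = 0.0756). Cyp1a2 was at 7.50 and 46.1 CPM against 626 and 571 CPM (-4.42 ± 0.67, adjusted p = 0.00034).

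In Pard3HMKO libraries Cyp1a2 was at 11.1 and 6.18 CPM on day 2 against 1104 and 515 CPM on day 0 (-6.55 ± 0.74, adjusted p = 2.09e-05), and Glul at 99.3 and 84.9 CPM against 1567 and 459 CPM (-3.46 ± 0.93, adjusted p = 0.0192). The Glul call was lost without Pard3HMKO day 0 replicate 1 (adjusted p = 0.186) or either Pard3HMKO day 2 library (0.124 and 0.162). Lgr5 was at 1.19 and 0.439 CPM against 12.6 and 4.64 CPM (-3.41 ± 0.71, adjusted p = 0.00143). Rhbg was at 2.15 and 1.71 CPM against 25.3 and 9.45 CPM (-3.17 ± 1.01, adjusted p = 0.0402), a call lost without any 1 of the 4 libraries (adjusted p 0.0541 to 0.279). Cells at 500 CPM or more of Glul numbered 1 of 53 and 2 of 62 in day 2 Pard3HMKO and 0 of 7 and 0 of 76 in Pard3WT libraries, for which the exact 95% intervals reach up to 41.0% and 4.74%. Of the 20 other pericentral genes, 17 fell in Pard3HMKO and 13 in Pard3WT libraries, with 1 up in each. Of the 11 tested Wnt feedback genes and targets, 6 fell in Pard3HMKO and 2 in Pard3WT libraries, among them Notum in both (0.0497 CPM on day 2 against 14.2 CPM on day 0, and 0.113 against 8.99 CPM). Biliary markers summed to 124 to 218 CPM on day 2 and 26.4 to 129.5 CPM on day 0 in Pard3HMKO, and to 539.7 to 1943 CPM on day 2 and 69.97 to 219 CPM on day 0 in Pard3WT libraries. Hepatocyte markers summed to 73923 to 78545 CPM on day 2 and 82080 to 101618 CPM on day 0 in Pard3HMKO (2 of 8 higher, 2 lower), and to 70140 to 83521 CPM on day 2 and 103114 to 103514 CPM on day 0 in Pard3WT libraries (1 higher, 1 lower). Of the 16 periportal genes, 5 rose and 6 fell in Pard3HMKO, and 3 rose and 8 fell in Pard3WT libraries. The part of these markers in the day 2 results was not tested.

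**Figure D5:**
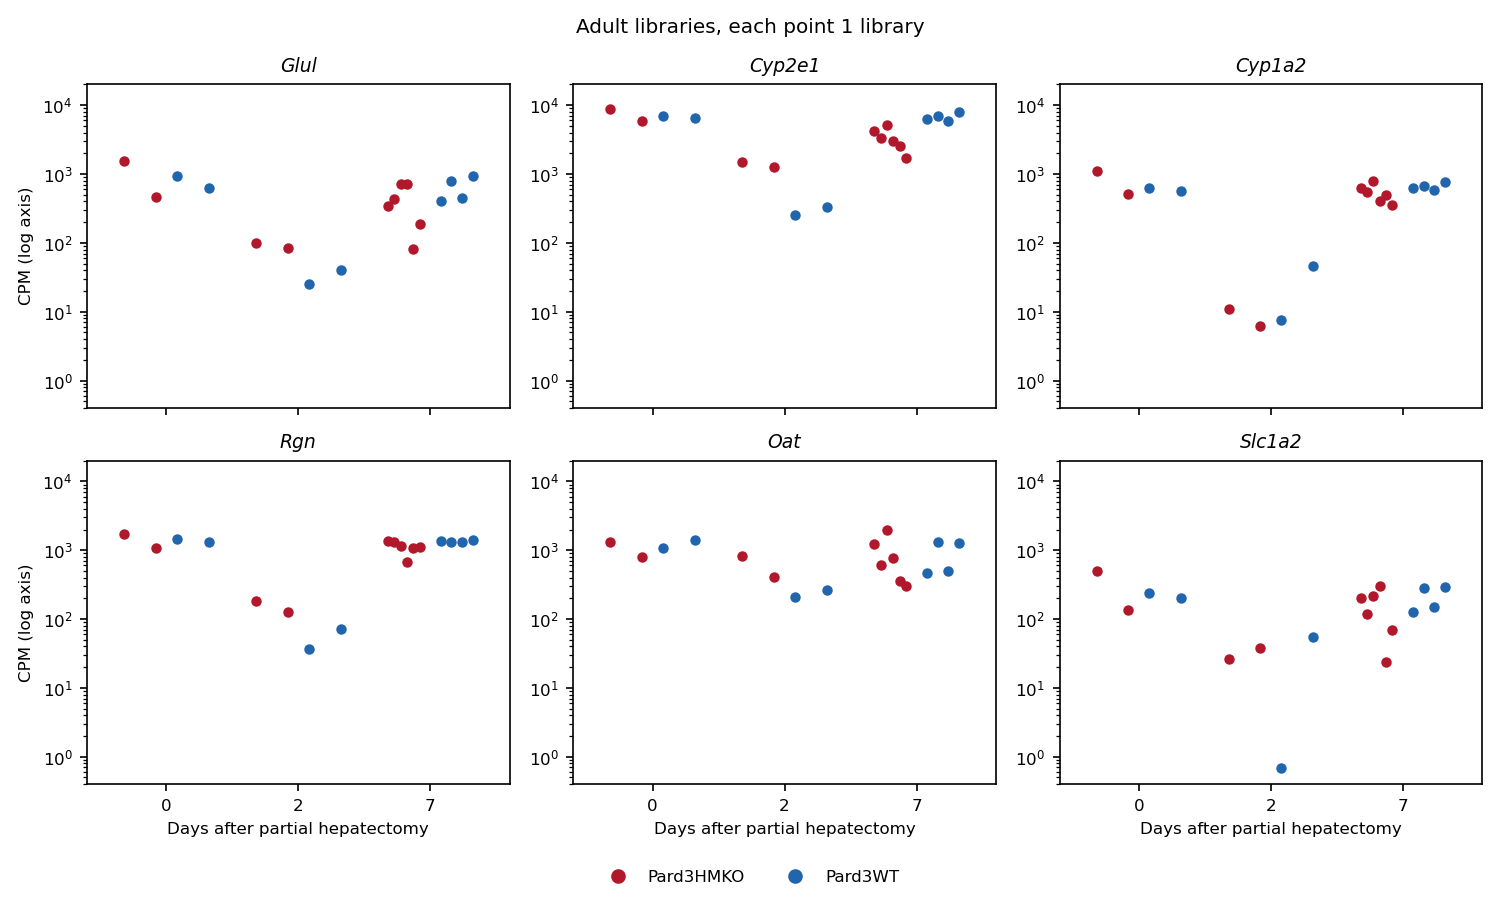
CPM per library (points, log axis) of 6 genes by day after partial hepatectomy, in Pard3HMKO (left of each pair) and Pard3WT adults. All 6 genes are lower on day 2 than on day 0 apart from the overlap of Oat in Pard3HMKO, and Cyp2e1 separates the genotypes on days 2 and 7.

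On day 2, Cyp2e1 and Rgn were higher in Pard3HMKO than in Pard3WT libraries, and no other member was called, with 3.18% of all genes called, 1.97% higher and 1.21% lower. The median log2 change of the 10 genes was 0.13 against 0.08. Cyp2e1 was at 1475 and 1249 CPM in Pard3HMKO against 251 and 327 CPM in Pard3WT libraries (2.23 ± 0.37, adjusted p = 0.00256), and Rgn at 182 and 125.5 CPM against 36.1 and 72.1 CPM (1.49 ± 0.31, adjusted p = 0.00753). Neither group overlapped. Glul, at 99.3 and 84.9 CPM in Pard3HMKO against 25.1 and 39.9 CPM in Pard3WT libraries, also did not overlap and missed the threshold (1.49 ± 0.87, adjusted p = 0.537). Without the 7-cell library, Pard3WT day 2 replicate 1, the calls on Cyp2e1 (2.05, adjusted p = 0.0536) and Rgn (1.09, adjusted p = 0.126) were lost, and the Rgn call also without Pard3HMKO replicate 1 (adjusted p = 0.119). Oat was at 833 and 408 CPM in Pard3HMKO against 209.9 and 261 CPM in Pard3WT libraries, without overlap or call. Slc1a2 was at 26.0 and 37.4 CPM against 0.682 and 54.0 CPM, and Cyp1a2 at 11.1 and 6.18 CPM against 7.50 and 46.1 CPM, with overlap. In single cells the upper quartile of Cyp2e1 was 2304 and 1186 CPM in Pard3HMKO against 245 and 312 CPM in Pard3WT libraries. Erythroid markers summed to 26.2 to 28.8 CPM in Pard3HMKO and 36.6 to 5001 CPM in Pard3WT libraries. Biliary markers summed to 124 to 218 against 540 to 1943 CPM, in the same order. Endothelial markers summed to 14.0 to 16.7 against 5.31 to 13.8 CPM, and lymphoid markers to 0.159 to 2.54 against 0.0 to 0.113 CPM. The part of these markers was not tested.

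The fall of Cyp2e1 by day 2 differed between genotypes, being smaller in Pard3HMKO by 2.1 ± 0.51 log2 (adjusted p = 0.041), with 2.36% of all genes called for that difference. The call was lost without any 1 of 7 of the 8 libraries (adjusted p 0.101 to 0.249), all but Pard3WT day 2 replicate 2. The difference for Rgn was 1.49 ± 0.42 (adjusted p = 0.0791).

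By day 7 the Pard3WT libraries showed no called difference from day 0 for any of the 10 genes, and 0.0% of all genes were called. At an unadjusted p under 0.05, 0 of the 10 and 633 of all genes passed, and DESeq2 called none of the 10. In Pard3HMKO, Cyp2e1 was lower on day 7 than on day 0 (-1.16 ± 0.27, adjusted p = 0.0279), with 3.75% of all genes called, and that call was lost without Pard3HMKO day 0 replicate 1 (-0.89, adjusted p = 0.508) or replicate 2 (0.0776). Between genotypes on day 7, Cyp2e1 fell in Pard3HMKO, at 1733 CPM in the lowest library, a median of 3153 CPM and 5161 CPM in the highest, against 5956, 6380.1, 7079 and 8007 CPM in the 4 Pard3WT libraries (-1.05 ± 0.23, adjusted p = 0.0124). All 6 Pard3HMKO libraries lay below all 4 Pard3WT libraries, and the call was lost without Pard3WT replicate 4 (adjusted p = 0.0562). Over all genes 5.52% were called, 2.76% in each direction, and the median log2 change of the 10 genes was -0.41 against 0.03.

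Glul on day 7 ranged from 82.7 to 710.3 CPM in Pard3HMKO and from 409 to 946 CPM in Pard3WT libraries (-0.66 log2, adjusted p = 0.568), and Slc1a2 from 23.7 to 305 CPM and from 125.8 to 290.4 CPM, with overlap. Cyp1a2 ranged from 360.1 to 781 CPM in Pard3HMKO and from 587 to 754 CPM in Pard3WT libraries, Oat from 304 to 1942 CPM and from 463 to 1314 CPM, and Rgn from 682 to 1349 CPM and from 1325 to 1430.0 CPM, none of them called. Cells at 500 CPM or more of Glul made up 13.7% ± 10.6 in Pard3HMKO (SD, n = 6) and 17.1% ± 6.34 in Pard3WT libraries (SD, n = 4). Each library counted equally in these means, with 9 to 31 cells in Pard3HMKO and 40 to 63 cells in Pard3WT libraries. The Pard3HMKO shares ran from 1 of 27 cells (3.70%, replicate 5) to 3 of 9 cells (33.3%, replicate 4). Replicate 3, with 2 of 12 cells, had the next highest share (16.7%), so the upper Pard3HMKO shares rest on few cells. Of the 20 other pericentral genes, 4 rose and 5 fell, among them Gstm3, which averaged 935 CPM in Pard3HMKO against 95.8 CPM in Pard3WT libraries (3.29 ± 0.50, adjusted p = 0.00158), and Pon1, at 723 against 1187 CPM (-0.72 ± 0.13, adjusted p = 0.00164). Of the 16 periportal genes, 5 rose and none fell. Macrophage and myeloid markers were higher in Pard3HMKO on day 7 for 6 of 11 markers, with summed levels of 25.5 to 96.4 CPM against 17.1 to 23.0 CPM, and stellate markers for 4 of 12, at 31.9 to 249 CPM against 5.92 to 26.5 CPM. Hepatocyte markers summed to 119055 to 128339 CPM in day 7 Pard3HMKO and 91611 to 110956 CPM in Pard3WT libraries. The part of these markers in the day 7 results was not tested.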

How the data were processed

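Single-cell RNA-seq by Smart-seq3xpress was summed per library over 3714 liver cells in 80 libraries. 550 columns from cultures were not used here. The authors deposited raw read counts per gene and cell. Per the submitters' processing notes, FastQC 0.11.9, Trimmomatic 0.39 and HISAT2 2.1.0 were used for RNA, with mm10. Not given in the sources used here were the counting tool, its strand setting and any collapse of molecular identifiers. For ATAC-seq the notes name MACS 1.4.2, HOMER, SAMtools 1.3.1, Bowtie2 2.2.5 and Trimmomatic 0.38, and the deposited peak lists give a MACS score per peak and library, at least 50.0 in every list. No doublet caller was run. 92 spike-in entries, with 26 reads in all, were left out, and 0 pairs of cell columns were identical.

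edgeR 4.0.16 (R 4.3.3, limma 3.58.1) filtered with filterByExpr, scaled by TMM and fitted robust quasi-likelihood models, with Benjamini-Hochberg adjustment over all genes and calls at 0.05. Fits covered 18 wild-type libraries (slope per day, 16 residual degrees of freedom), 44 libraries of the Cre lines (22) and 18 adult libraries (12). The sharing of 1 spread in each fit means that small groups borrow from the others. All 10 genes passed the filter in each fit. Standard errors are the log2 change over the square root of F. In simulated counts with 200 genes changed by 2 log2 units, 100.0% were recovered for the slope among 14479 genes, 35.0% for E17.5 Foxa3Cre among 15953 and 95.5% for adult day 7 among 14324. Of the simulated calls, 5.21%, 4.11% and 2.05% were false, in the same order. The simulation gave every gene the same dispersion and changed only genes above a cut on mean CPM, so it does not cover genes with few reads. ATAC regions were merged peaks of 6 libraries, assigned to genes within 10 kb. Other steps ran in Python 3.11.15 with matplotlib 3.10.9, scipy 1.17.1, pandas 2.3.3 and numpy 2.4.6.

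The 10 genes and the gene lists were chosen with earlier results of these data known. Of each pathway list, at most 3 called genes with the smallest adjusted p per comparison are named. Genes likened to Glul had reads in at least 20% of cells of each adult day 0 library. The value of 1 of the 10 genes most like Glul is not reported here. The list genes named for Glul-high cells were chosen after their values were seen. Alternatives were DESeq2 1.42.0, other size factors, no filter on low counts, equal weight per cell, removal of cells with markers of other types, fits of the compared libraries only, a replicate block, and leaving out each library. Removal at 10 CPM, crossed numbering and the slope without E15.5 and E16.5 were chosen after seeing the data.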

Additional observations from a re-analysis of the deposited data

Results flagged for a closer look

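The change of Lect2 in Pard3HMKO libraries at E17.5 differed between the Cre lines by 1.10 ± 0.25 log2 (AlfpCre minus Foxa3Cre, edgeR's quasi-likelihood test, adjusted p = 0.0109), with changes of 1.83 in AlfpCre and 0.73 in Foxa3Cre.

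For Rgn the same difference was 0.91 ± 0.18 (edgeR, adjusted p = 0.00278), with changes of 0.46 in AlfpCre and -0.45 in Foxa3Cre.

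The day 2 response of Cyp2e1 to hepatectomy differed between genotypes by 2.1 ± 0.51 log2 (Pard3HMKO minus Pard3WT, edgeR, adjusted p = 0.041), with changes of -2.44 in Pard3HMKO and -4.54 in Pard3WT adults.

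Among the 20 sets of day 7 values checked, 1 for each of the 10 genes in each genotype, no library stood far from the rest.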

How the results depend on the processing

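Of 860 recomputed values of called changes, 721 kept their direction and call, 134 kept the direction and lost the call, and 5 turned. Rgn at E17.5 in Foxa3Cre was 0.27 with each cell weighted equally in limma. Without cells holding markers of other types, Lgr5 at P0 was -8.37, Glul at P14 1.20, Slc1a2 at P14 0.0945 and Rgn in Pard3WT at P14 against P0 -0.18. Those P0 and P14 Pard3HMKO values rest on 2 cells each, and 1 P14 Pard3WT library on 1 cell.

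Without marker-holding cells the number of the 10 genes called was 1 at E17.5, 0 at E19.5, 4 at P0, 2 in AlfpCre, 2 for Pard3WT P0 against E19.5 and 2 for P14 against P0, 0 on day 2, 0 on day 7, 2 for day 2 against day 0 in either genotype, 0 for Pard3HMKO day 7 against day 0, 0 for the difference between lines and 0 for the day 2 difference. Without a filter on low counts it was 2 at E13.5, 5 at E19.5, 5 on day 2, 3 on day 7, 9 for Pard3WT day 2 against day 0, 4 for Pard3HMKO day 7 against day 0, 1 for E19.5 minus E17.5 and 5 for the day 2 difference. DESeq2 called 3 at P14, 7 for Pard3WT day 2 against day 0 and 2 for the day 2 difference. Equal weights in limma gave 8 for Pard3WT day 2 against day 0, 0 for the difference between lines and 1 for E19.5 minus E17.5. Fitting the compared libraries only gave 2 at E17.5, 5 at E19.5, 1 on day 2, 0 for Pard3HMKO day 7 against day 0 and 1 for the difference between lines.

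Equal weights also moved the median of all genes, by 0.31 at E17.5 in Foxa3Cre, where 93.2% of called genes were then higher, by 0.16 in AlfpCre (83.2%), by 0.11 at P0 (72.3%) and by -0.23 on day 2 (18.5%), against 47.4%, 42.2%, 48.3% and 61.8% in the edgeR fits.

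Leaving out 1 library gave 7 to 8 genes for the slope, 0 at E11.5, E13.5 and E15.5, 1 to 4 at E17.5, 2 to 3 at E19.5, 5 to 6 at P0, 3 at P14, 3 in AlfpCre, 5 to 6 for P0 against E19.5, 4 to 5 for P14 against P0, 0 on day 0, 1 to 2 on day 2 and 0 to 1 on day 7. For day 2 against day 0 it gave 3 to 6 in Pard3WT and 4 to 5 in Pard3HMKO, and for day 7 against day 0 0 in Pard3WT and 0 to 1 in Pard3HMKO. It gave 1 to 2 for the difference between lines, 0 to 1 for E19.5 minus E17.5, 0 to 2 for the day 2 difference and 4 to 5 genes with gained or lost peaks.

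Groups share replicate numbers, but nothing in the labels pairs them, and correlations of same-numbered deviations ran from -0.28 on day 2 to 0.499 between day 7 and day 0 in Pard3WT. With the replicate block 2 genes were called at E17.5, 5 at E19.5, 0 in AlfpCre, 5 on day 2, 0 on day 7 and 0 for the difference between lines. Crossing the numbers, chosen after seeing the data, gave 5 on day 2.

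The mean share of Glul-high cells at a cut of 100 CPM was 29.5% in day 0 Pard3WT, 14.8% in day 2 Pard3HMKO, 4.61% in day 2 Pard3WT, 25.9% in day 7 Pard3WT, 25.4% in P14 Pard3HMKO and 14.1% in P14 Pard3WT libraries. At 2000 CPM it was 0 in day 2 and in P14 Pard3HMKO and 5.31% in P14 Pard3WT libraries. The causes of these changes were not tested. With 2 libraries in most groups, depth per cell limits Cyp1a2, Lgr5, Axin2 and Slc1a2 in the embryo, which had few reads.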

Other observations

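E17.5 Foxa3Cre libraries of a Yap line, outside the comparisons, gave Rhbg at 31.5 and 40.1 CPM in libraries labelled YapHMKO against 6.52 and 5.76 CPM in YapWT, and Lgr5 at 9.02 and 2.45 CPM against 0.819 and 0.154 CPM. Libraries labelled Pard3HMKO YapHMKO had Rhbg at 44.3 and 42.9 CPM against 5.99 and 7.43 CPM in Pard3WT YapWT. Cyp2e1 was at 42.1 and 36.3 CPM in YapHMKO against 82.4 and 120 CPM in YapWT libraries. These values were not tested. In open chromatin the Cyp2e1 promoter region had a peak in 0 of 3 YapHMKO and 3 of 3 YapWT libraries.

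At E19.5, Cyp2e1 was at 617 and 628 CPM in B6C3F1 against 38.6 and 25.3 CPM in Foxa3Cre Pard3WT libraries, which were not set against each other here. These libraries differ in strain, in the Cre transgene and in depth, which cannot be told apart. Median reads per cell were 1030303 and 1043232 in B6C3F1 and 514816 and 526009 in Foxa3Cre Pard3WT libraries. Within Foxa3Cre Pard3WT, Cyp2e1 was at 104 and 203 CPM at E17.5. At E19.5, 20 of 51 and 13 of 67 B6C3F1 cells reached 500 CPM of Glul, with 36 and 43 cells between 250 and 1000 CPM.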
